A study of Canis lupus familiaris with 30 samples.

Results

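Transcripts of the fibroblast growth factor (FGF) receptors and of a set of their ligands were examined in 30 canine thyroid carcinomas. The gene list held 10 members: the receptors *FGFR1*, *FGFR2*, *FGFR3* and *FGFR4*, the decoy receptor *FGFRL1*, the co-receptor *KLB* and the ligands *FGF1*, *FGF2*, *FGF7* and *FGF9*. Members were taken by gene symbol from a table of raw read counts with 30424 genes, and 9 of the 10 had a row; *FGF2* was not analysed here. All 9 reached at least 10 counts in at least 5 tumors, a limit that 18711 genes passed over the 30 tumors.

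The study sequenced ribosome-depleted total RNA of primary thyroid tumors of dogs, 1 library a tumor. Its cohort held follicular carcinomas, which arise from the hormone-producing epithelium, and medullary carcinomas, which arise from the calcitonin-producing C cells. The sample labels give thyroid gland and tumor tissue for all 30 libraries and name no tumor type, treatment, age or breed, so the 30 tumors formed 1 group and no tumor types were compared. Tumors are called by their library names.

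FGF receptors are tyrosine kinases that span the cell membrane and signal through RAS-MAPK, PI3 kinase and phospholipase C gamma when a secreted FGF and heparan sulfate join receptor chains into a dimer. Alternative splicing of the receptors sets which ligands bind, with one form typical of epithelium and the other of stroma, and many ligands, FGF7 among them, are made by stroma and act on epithelium. The klotho proteins let hormone-like FGFs bind, while sprouty, SPRED and dual-specificity phosphatase proteins, which the pathway itself induces, dampen it.

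Between 12288945 and 45148677 reads were counted per tumor, with a median of 25569678. TC538 had the fewest counts and the smallest size factor, 0.279 against up to 1.62. A level is log2 of the count divided by the size factor of the tumor, plus 1. Levels are not corrected for transcript length. Their heights were therefore compared between tumors and not between genes, apart from the rank of the *FGFR1* median below. Each tumor has 1 library, so only the counting error of a single value can be given, as an exact 95% Poisson interval where it matters. Other error of a library was not measured. In bulk tissue, fewer cells of a type and less RNA per cell cannot be told apart.

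The tumors fell into 2 branches of a clustering from which the members and all listed FGF pathway genes were left out. The larger branch held 25 tumors, and the smaller branch held TC1020, TC1473, TC1601, TC1936 and TC2289. The summed normalized count of 12 C cell marker genes was between 299000 and 816000 in these 5 tumors and at most 9600 in the other 25. Calcitonin (*CALCA*) had levels of 19.24, 18.70, 17.78 and 16.80 in TC1936, TC1020, TC1473 and TC1601, against 6.94 in TC2289. Follicular markers did not mirror this split in every tumor: TC1088, on the larger branch, had the lowest summed count of 16 follicular genes, 791, followed by TC2289 at 3930, TC1020 at 7390, TC1473 at 10300 and TC1936 at 14300, and a median over tumors of 441000. The branches come from the data and not from the labels, so no test compared them.

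*FGFR1*, a receptor widely used in mesenchymal and neural tissue, was detected in every tumor. Its level was lowest in TC538 at 10.41, had a median of 12.65 and was highest in TC1936 at 14.76, which is 20.4-fold between the extremes. In TC1020 it was 14.50, the second highest level. The other smaller-branch levels were 13.63 in TC2289, 13.61 in TC1601 and 11.90 in TC1473, so these tumors lay inside or above the 10.41 to 14.12 of the larger branch. Its SD over the 30 tumors, 1.13, was larger than that of 63.4% of all genes that passed the count limit. Its median normalized count was above that of 98.2% of them, a rank that is not corrected for transcript length.

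*FGFR2*, whose epithelial splice form binds FGF7, varied most among the members. Levels were 2.55 in TC1020, 3.12 in TC2289, 4.66 in TC1936, 4.87 in TC1473 and 7.37 in TC1601. The other 25 tumors lay between 9.13 and 12.22, and the share of all genes that part the branches in this way was not counted. The counts behind the low levels were 5 in TC1020 (interval 1.62 to 11.7), 6 in TC2289 (2.2 to 13.1), 23 in TC1936 (14.6 to 34.5), 31 in TC1473 (21.1 to 44.0) and 191 in TC1601 (165 to 220). TC1020 and TC2289 could not be ordered beyond counting error, nor could TC1936 and TC1473, whereas TC1601 stood above the other 4. In the larger branch the lowest tumor, TC1164, had 431 counts (391 to 474), and the highest levels were 12.22 in TC2110 and 12.14 in TC1088. The SD of 2.65 over all 30 tumors exceeded that of 96.9% of genes, and the extremes differed 984-fold in normalized count, a ratio that rests on 5 counts at its lower end.

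*FGFR3*, a brake on cartilage growth and an epithelial receptor, had a lowest level of 6.13, a median of 9.02 and a highest level of 11.07. The 4 lowest tumors were TC1473 at 6.13, TC2289 at 6.60, TC1936 at 6.77 and TC1020 at 7.31, all of the smaller branch, while TC1601 at 8.25 lay inside the larger branch's 8.04 to 11.07. TC1164 at 11.07, TC1744 at 10.75, TC1994 at 10.74 and TC67 at 10.59 were the highest.

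*FGFR4*, the receptor that FGF19 uses in liver with KLB, was at low counts throughout. Its level ran from 1.81 in TC627, where 2 reads were counted (interval 0.242 to 7.22), over a median of 5.00 to 7.35 in TC1601 with 189 counts (163 to 218). TC1601 and TC1020, at 7.35 and 6.77, were above the larger branch's highest level of 6.59, and the other 3 smaller-branch tumors, at 4.12 to 4.66, were below the median. At least 10 counts were reached in 25 of 30 tumors.

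**Figure D1:**
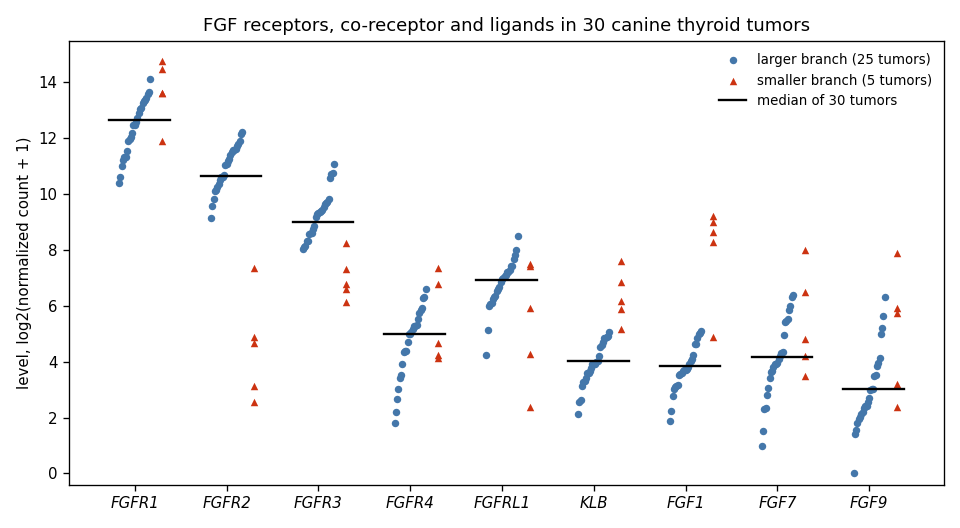
Level of each member, log2(normalized count + 1) on the vertical axis, in 30 canine thyroid tumors, with 1 point a tumor, circles for the 25 tumors of the larger branch, triangles for the 5 of the smaller branch and a line at the median of all 30. The triangles lie below all circles in *FGFR2* (at most 7.37 against at least 9.13) and above all circles in *KLB* (at least 5.18 against at most 5.06). The share of all genes that part the branches in this way was not counted. Heights of different genes cannot be compared because levels are not per length.

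The make-up of the receptors was taken within each tumor as the share of a receptor in the reads counted on *FGFR1* to *FGFR4*, which needs no scaling between tumors. These are shares of reads and not of molecules, since a longer transcript yields more reads. *FGFR1* held the largest share in 27 of 30 tumors, with a lowest share of 24.8% in TC1088, a median of 72.5% and a highest share of 99.4% in TC1936. The smaller branch sat at the upper end, at 95.2% in TC1601 (95% Wilson interval 94.9 to 95.5), 97.1% in TC1473, 98.8% in TC1020, 99.4% in TC1936 and 9901 of 9996 reads in TC2289 (interval 98.8 to 99.2), and the next tumor, TC2011, was at 84.4%.

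*FGFR2* held the largest share in the other 3 tumors, at 70.3% in TC1088 (interval 69.2 to 71.4), 48.4% in TC1213 and 40.4% in TC67. Its median share was 19.9% and its lowest was 0.0207% in TC1020. *FGFR3* had a median share of 5.68% and held the largest share in no tumor. Its highest share, 40.7% in TC1164, stood beside 48.5% for *FGFR1*. The next were 25.2% in TC67, 25.0% in TC1994 and 20.9% in TC1744, all on the larger branch. *FGFR4* stayed between 0.0298% in TC22 and 1.24% in TC1601. Within the larger branch, the intervals of *FGFR1* in TC1088 and TC2011 were far apart, so that the make-up differed beyond counting error.

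**Figure D2:**
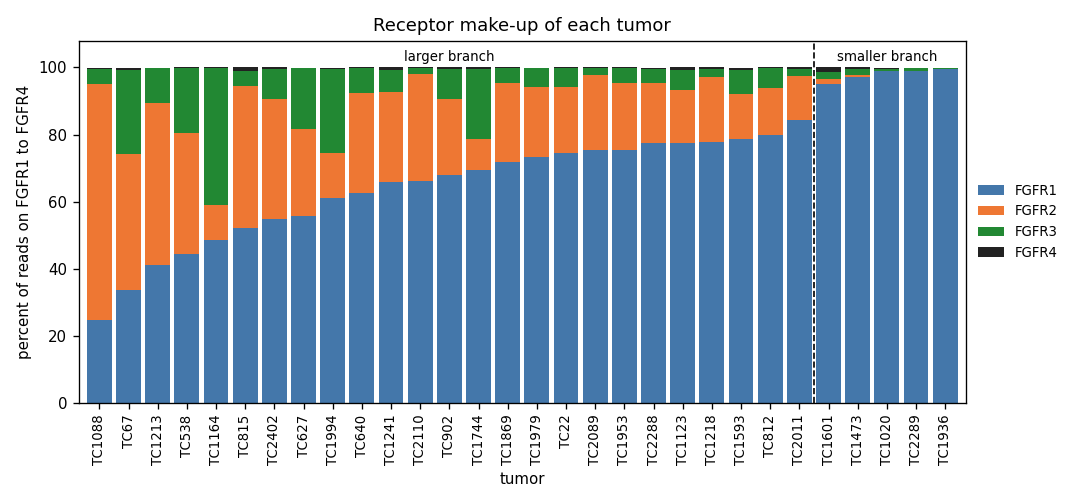
Percent of the reads on *FGFR1* to *FGFR4* (vertical axis, stacked to 100) in each of the 30 tumors, ordered by the *FGFR1* share within each branch, with a dashed line between branches. *FGFR1* rises from 24.8% in TC1088 to 84.4% in TC2011 on the larger branch and lies between 95.2% and 99.4% in the smaller branch, where *FGFR2* is at most 1.25%.

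*FGFRL1* encodes a receptor that binds FGFs and heparan sulfate but lacks the kinase domain. Its level was lowest in TC1936 at 2.39, with 4 counts (interval 1.09 to 10.2), had a median of 6.91 and was highest in TC1869 at 8.49. TC538 at 4.24 and TC1473 at 4.26 followed TC1936 from below, whereas TC1020 at 7.51 and TC1601 at 7.41 were above the median, so the smaller branch spanned most of the range.

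*KLB*, or beta-klotho, is the co-receptor through which FGF19 and FGF21 bind. The 5 highest levels were those of the smaller branch: 7.59 in TC1473, 6.86 in TC1020, 6.19 in TC1936, 5.87 in TC2289 and 5.18 in TC1601. TC538 came next at 5.06, and the larger branch ran down to 2.13 in TC2288. The separation at this edge is narrow: TC1601 had 41 counts (interval 29.4 to 55.6) and a normalized count of 35.2, and TC538 had 9 counts (4.12 to 17.1) and a normalized count of 32.3. These intervals are of raw counts, and the size factors were 1.17 and 0.279. The normalized counts of the 2 tumors could therefore not be ordered beyond counting error. Over all tumors the median was 4.01.

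*FGF1*, the acidic FGF that binds all the receptors, had a lowest level of 1.86 in TC1869, a median of 3.86 and a highest of 9.20. Levels stood apart from all others in 4 tumors, TC1936 at 9.20, TC1601 at 8.99, TC1473 at 8.66 and TC1020 at 8.27, with 318 to 590 counts each. TC2289, the tumor of the smaller branch with little *CALCA*, had 4.87 and 22 counts (13.8 to 33.3), below TC1213 of the larger branch, which had the next highest level, 5.11. The SD of *FGF1* was larger than that of 89.2% of genes.

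*FGF7*, keratinocyte growth factor, ran from 0.97 in TC640, with 1 count, over a median of 4.15 to 8.00 in TC1473, with 280 counts (248 to 315). TC1601 at 6.51 was second and TC2089 of the larger branch followed at 6.38, while TC2289 was at 3.49, so the branches overlapped. *FGF9*, a ligand that acts between epithelium and stroma in the developing gonad and lung, was the member with the fewest reads and reached 10 counts in 11 of 30 tumors. No read was counted in TC1164, for which the floor of 3 counts is a normalized count of 3.88, and the exact interval runs up to 3.69 counts. The median level was 3.00, and the highest were 7.89 in TC2289 with 184 counts (158 to 213), 6.32 in TC1088 with 79 counts (62.5 to 98.5), 5.93 in TC1020 and 5.76 in TC1601. TC1936 at 2.39 and TC1473 at 3.20 lay near the median.

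Smaller-branch tumors thus held the 5 lowest levels of *FGFR2*, the 5 highest of *KLB* (TC1601 not resolved from TC538), the 4 lowest of *FGFR3* and the 4 highest of *FGF1*. How many of all genes separate the branches in this way was not counted, and the branches were formed from 760 genes of high variance. These ranks are therefore not read as particular to the members. TC1601 had the most *FGFR2* and *FGFR3* of those tumors and the least *KLB*. Its summed follicular count was 236000, against 3930 to 14300 in the other 4, and the part of this in its levels was not tested. TC2289 had 6 counts of *FGFR2* without the high *FGF1* of the other 4. The 5 tumors are too few for a correlation within the branch, and no coefficient was computed across both branches.

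**Figure D3:**
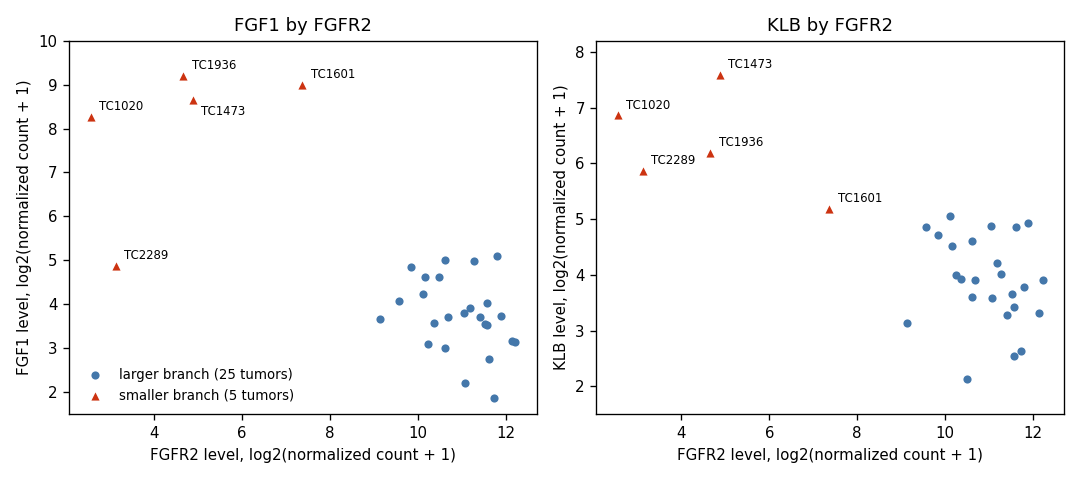
Level of *FGF1* (left) and of *KLB* (right) against the level of *FGFR2*, all as log2(normalized count + 1), with 1 point a tumor, circles for the larger and named triangles for the smaller branch. The triangles lie at *FGFR2* levels of 2.55 to 7.37 and the circles at 9.13 to 12.22, and TC2289 is the 1 triangle whose *FGF1* level, 4.87, falls among the circles.

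The other genes of the pathway were followed as lists. Of 14 other secreted ligands, 5 passed the count limit and 9 did not, *FGF19*, *FGF21* and *FGF23*, the hormone-like ligands, among the latter. *FGF10*, a stromal ligand of the epithelial form of FGFR2, had a level of 0 in TC2289, a median of 5.61 and a highest level of 11.42 in TC815. *FGF18* ran from 0 in TC1936 to 7.88 in TC1088 with a median of 4.76. *FGF17* was highest in TC1020 at 7.22, *FGF20* in TC812 at 6.10 and *FGF4* in TC1218 at 6.00, each with at least 10 counts in 14 tumors or fewer.

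Of 16 co-receptors and binding proteins, 15 had a row and 13 passed. *KL*, or klotho, was highest in TC1601 at 10.93, the tumor with the least *KLB* of the smaller branch, against a median of 3.87. *NCAM1*, an adhesion molecule that binds FGFR1, had a median of 5.60, and its levels were 13.29 in TC1020, 12.31 in TC1473, 11.19 in TC1601, 9.69 in TC2289 and 9.25 in TC1936. TC1213 of the larger branch, at 9.45, lay among them.

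All 10 adaptors and effectors, 16 of 17 targets and feedback inhibitors, 7 of 8 heparan sulfate enzymes and 3 of 4 intracellular FGF homologous factors had a row, and all of these passed the limit. Over the 30 tumors, the range of levels of the adaptors ran from 1.75 for *CBL*, an E3 ligase that removes active receptors, to 4.89 for *FRS2*, the docking protein of the receptors. That of the targets and feedback inhibitors ran from 2.95 for *SPRED2* to 7.88 for *ETV4*, so the lists overlapped.

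TC1088, which the study left out of its own comparison of tumor types, was examined on its own for this reason and for its *FGFR2* share. Gene counts do not tell full-length from truncated or joined transcripts of a receptor. Of the 16 targets and feedback inhibitors, 7 had their highest level of the 30 tumors there: *SPRY1* at 12.99, *SPRY2* at 10.90, *SPRED2* at 11.01, *DUSP6* at 13.92, *ETV4* at 12.97, *ETV5* at 12.67 and *IL17RD* at 10.85. *SPRED1*, at 13.18, *ETV1*, *DUSP5* and *CCND1* also ranked among the 3 highest tumors there, which makes 11 of 16. Of all 18711 genes past the count limit, 5.61% had their highest level in TC1088 and 14.2% a level among the 3 highest. *EGR1*, at 10.83, ranked 10th, and *SPRY4* at 6.83, *DUSP4* at 9.17, *FOS* at 7.14 and *PHLDA1* at 4.45 ranked 25th, 21st, 29th and 28th of 30 from the highest.

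The summed normalized count of the targets was 61200 in TC1088 and 41600 in TC1601, the second, against a median of 13500. In the same tumor the summed fibroblast genes, 6130, the pericyte and smooth muscle genes, 4480, and the follicular genes were the lowest of the 30, and *FGF7* had a level of 2.32. *PDGFRA*, one of the fibroblast genes, was an exception and had its highest level there, 10.20. The part of these markers in the high target genes was not tested. By its ratio of 4514 *FGFR2* counts to 1592 *FGFR1* counts, TC1088 was the tumor furthest towards *FGFR2*.

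**Figure D4:**
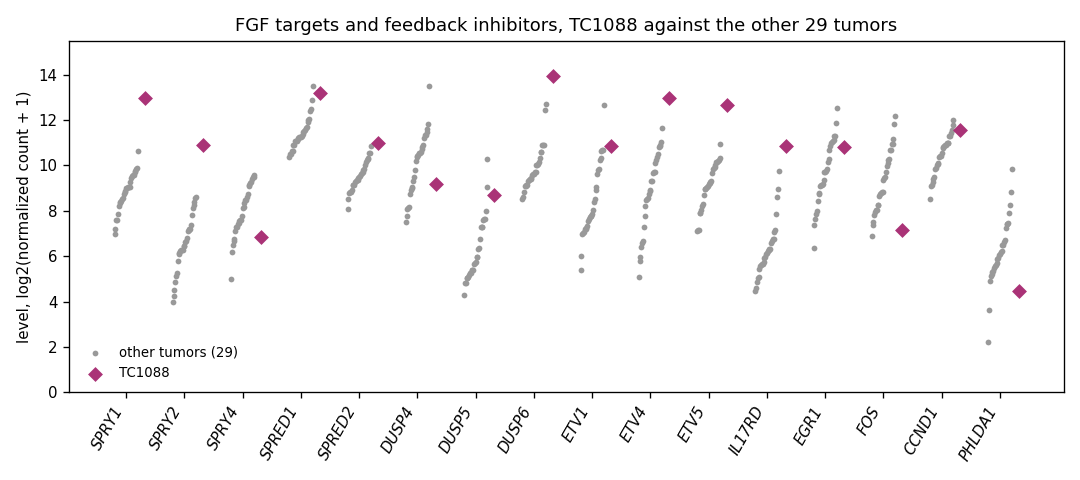
Level, log2(normalized count + 1) on the vertical axis, of the 16 measured targets and feedback inhibitors of FGF signalling, with a diamond for TC1088 and grey points for the other 29 tumors. The diamond is the highest point in 7 genes, among them *DUSP6* at 13.92 and *SPRY1* at 12.99, and sits low in *FOS* at 7.14 and *PHLDA1* at 4.45.

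Which genes moved with each member was tested within the larger branch, by Spearman's rho over its 25 tumors, a two-sided permutation test and Benjamini-Hochberg adjustment over the 18105 genes tested with each member. Genes were called at an adjusted p below 0.05. *FGFR1* had 785 called genes (4.34%), 365 of them positive, and 503 of 821 were positive under TMM scaling. For *FGFR2*, *FGFR3* and *FGFR4* the permutation test called 0 genes (0%), with 2581, 1247 and 423 at an unadjusted p below 0.05. *FGFRL1* had 1609 (8.89%), 919 of them positive. *KLB* and *FGF9* had 0 (0%), with 2665 and 1075 at an unadjusted p below 0.05, *FGF1* had 7 (0.0387%) and *FGF7* had 64 (0.353%), of which 27 were positive, against 6 of 11 under TMM scaling.

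Several of these counts changed when TC538 or TC1088 was left out, and no other tumor was left out for comparison. Without TC538 the count fell to 190 for *FGFR1*, to 7 for *FGFRL1* and to 20 for *FGF7*. The genes at an unadjusted p below 0.05 with *FGFRL1* went from 5625 to 4325 by the same permutation test. Without TC1088 *FGFRL1* fell to 597, while *FGFR2* rose to 7 and *KLB* to 36. With ranks adjusted for the size factor, *FGFR1* had 89, *FGFRL1* 120 and *FGF7* 32. The rho of the member with the size factor was 0.43 for *FGFR1*, 0.23 for *FGFRL1* and -0.28 for *FGF7*, and its part in the calls was otherwise not tested.

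Members did not pair up by this test. Of 36 pairs, 0 were called and 1 had an unadjusted p below 0.05, *FGF1* with *FGF7* (rho 0.59, permutation p = 0.00228, r 0.59, permutation p = 0.00195). Its adjusted p was 0.28 among the genes tested with *FGF1* and 0.0843 among those tested with *FGF7*. The r was 0.54 without TC1869 and TC812, the tumors farthest from the median of *FGF1*. The lowest rho was -0.39, between *FGFR2* and *FGFR3* (permutation p = 0.0564, r -0.53, permutation p = 0.007), with an adjusted p of 0.363 and 0.72, and the r was -0.29 without TC1164 and TC1744. The median rho over the 36 pairs was -0.02. A p that misses the limit does not show that the members are unrelated.

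Among genes with a mean normalized count of at least 100, those nearest *FGFR1* were *HIPK2*, a nuclear kinase (rho 0.88), *MOV10*, an RNA helicase (0.86), *LETM2*, a mitochondrial membrane protein (0.86), and the zinc finger genes *ZNF467* (0.85) and *ZNF777* (0.84). Each had an adjusted p of 0.00226 in the permutation test. Their r lay between 0.76 and 0.86, and without TC538 and TC1088, the tumors farthest from the median of *FGFR1*, between 0.82 and 0.97. The lowest were *CD302*, a lectin receptor (rho -0.85), *PRKACB*, a catalytic subunit of protein kinase A (-0.84), and *FAM199X* (-0.80). All 8 stayed called in every alternative run.

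Of the 124 genes of the pathway and marker lists that were tested, 4 were called with *FGFR1*, or 3.23%, against 4.34% of all genes. *SPRED1*, a feedback inhibitor, was negative (rho -0.76, adjusted p = 0.00522 by the permutation test, r -0.73, and -0.57 without TC538 and TC1088). *MYH7*, a slow muscle myosin, was positive (rho 0.78, adjusted p = 0.00426 by permutation, r 0.77 and 0.75). *MYH7* was the 1 called gene of 7 tested skeletal muscle markers, whose median rho was 0.23. *GRB2*, the adaptor to RAS (rho 0.62, adjusted p = 0.039), and *NOTCH3*, a pericyte receptor (rho 0.60, adjusted p = 0.0473), were positive but lost the call in 4 alternatives. The adjusted p values of the permutation test were 0.0958 and 0.116 without TC538, 0.0695 and 0.0838 without TC1088, 0.0578 and 0.07 without the count filter, and 0.113 and 0.198 with ranks adjusted for the size factor.

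*FGFR1* and the other targets went in both directions. Over 16 targets the median rho was -0.11, against 0.02 over all genes tested, and 6 of 16 were above 0. *ETV4* was at -0.53 (permutation p = 0.00708, adjusted p = 0.0784).

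For *FGFR2* the nearest genes were not called. *DIPK1B* had the highest rho, 0.77 (adjusted p = 0.0634 by permutation), and *CDC14A*, a phosphatase of the cell cycle, the lowest, -0.77 (adjusted p = 0.0634). Without TC1088, *CDC14A* was called at -0.81 (permutation, adjusted p = 0.0315) and *DYNC2I2*, a dynein subunit of cilia, at 0.78 (adjusted p = 0.0315). Of the targets, 12 of 16 had a rho above 0 with *FGFR2* and the median was 0.09, with 0 called. The highest in the adaptors was 0.43 for *GRB2*, and *PTPN11* was at -0.59 (adjusted p = 0.167 by permutation).

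*FGFR3* and *FGFR4* had no called gene in any alternative. *RIN2* was nearest to *FGFR4* (rho 0.67, adjusted p = 1.0 by permutation). The targets had a median rho of 0.26 with *FGFR4*, against -0.0 over all genes tested, and 14 of 16 were above 0, with 0 called. This was not particular to receptors with a kinase: with *FGFRL1* the median was 0.20 and 13 of 16 were above 0. With the remaining members it ran from -0.27 for *FGF7* (4 of 16 above 0) to 0.14 for *FGF1* (11 of 16). *FGFR4* had a median of 31 counts on the larger branch.

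*FGFRL1* was nearest to *SMAD3*, an effector of TGF-beta, *IDUA*, the lysosomal enzyme that trims iduronic acid from heparan and dermatan sulfate, and *CCND3*, a D-type cyclin, each with a rho of 0.80 (adjusted p = 0.0145 by permutation). The r was 0.84, 0.86 and 0.85, and without TC538 and TC627 it was 0.68, 0.80 and 0.85. These 3 were still called without TC538 (adjusted p = 0.0284 for each), whereas *LARGE2* (rho 0.78) and the lowest genes *MCTS1* (-0.75), *ASXL2* (-0.74) and *BBOF1* (-0.74) were not, at adjusted p values of 0.07 to 0.08 by permutation.

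Of the 124 list genes, 4 were called with *FGFRL1*, or 3.23%, against 8.89% of all genes. *GPC1*, a glypican (rho 0.62), and *GRB2* (0.63) were positive, and *SOS1*, the exchange factor for RAS (-0.60), and *PTPRC*, the leukocyte antigen CD45 (-0.59), were negative, at adjusted p values of 0.035 to 0.0407 in the permutation test. All 4 lost the call without TC538, at 0.0968 to 0.106, without the count filter, at 0.0511 to 0.0601, and with ranks adjusted for the size factor, at 0.0684 to 0.0781.

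*KLB* had its nearest genes just past the limit. The lowest were *TSC22D4*, *CXXC1*, which binds unmethylated CpG, and *PLAGL2*, a zinc finger factor, with rho of -0.77, -0.77 and -0.76 (adjusted p = 0.0525 for each by permutation). Without TC1088 these 3 were called, at adjusted p values of 0.0158 to 0.0372, and so was *POC5*, a centriole protein, at a rho of 0.80 (adjusted p = 0.0158 in the permutation test). On the larger branch *KLB* had a median of 14 counts.

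*FGF1*, with a median of 13 counts on the larger branch, had 7 called genes, 6 of them positive. *CCNYL1*, a cyclin-like gene, had a rho of 0.79, *MRC1*, the mannose receptor of macrophages, 0.76, and *SFXN2*, a mitochondrial carrier, -0.78, each at an adjusted p of 0.0422 by permutation. These calls were fragile: TMM scaling gave 0 called genes, and the adjusted p of *MRC1* reached 0.124. No list gene was called with *FGF1*. Of 9 endothelial markers, 8 had a rho above 0 and the median was 0.50, against 0.01 over all genes tested, with *PECAM1*, a junction molecule of endothelium, at 0.63 (adjusted p = 0.202 by permutation). All 12 fibroblast markers were above 0, with a median of 0.36. *SULF1*, which removes sulfate groups from heparan sulfate, had a rho of 0.69 (adjusted p = 0.142 by permutation).

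*FGF7*, with a median of 15 counts on the larger branch, was nearest to genes of fibroblasts and extracellular matrix. *LUM*, the collagen-binding proteoglycan lumican, had a rho of 0.80 (adjusted p = 0.0129) and an r of 0.79, which was 0.72 without TC640 and TC812, the tumors farthest from the median of *FGF7*. *FAP*, fibroblast activation protein, had a rho of 0.78 (adjusted p = 0.0181 by permutation) and an r of 0.83, or 0.75 without those tumors. *C7*, a complement component (rho 0.77), *ITGBL1* (0.77) and *ADAMTS5*, an aggrecanase (0.75), were also called. *LUM*, *FAP*, *C7* and *ITGBL1* stayed called in every alternative, with an adjusted p of at most 0.0406, and *ADAMTS5* reached 0.0607 under TMM scaling.

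All 12 fibroblast markers had a rho above 0 with *FGF7*, with a median of 0.40 against 0.01 over all genes, and *LUM* and *FAP* were the 2 called. A positive median was not particular to *FGF7*. It was 0.36 with *FGF1*, 0.34 with *FGFR1* and 0.27 with *FGF9*, the latter 2 with 11 of 12 above 0. The lowest median was -0.04, with *FGFR4*. They were also the 2 called of all 124 list genes, or 1.61%, against 0.353% of all genes. *POSTN* at 0.65 (adjusted p = 0.0651 by permutation) and *DCN* at 0.60 (adjusted p = 0.0789) came next, and *PDGFRB* at 0.15 and *THY1* at 0.16 last. The summed count of the fibroblast genes ran from 6130 to 376000 over the 30 tumors, and its part in the *FGF7* levels was not tested further. At the negative end were *RPL13*, a ribosomal protein (rho -0.82), *TNRC18* (-0.80) and *EIF3G*, a subunit of a translation initiation factor (-0.79), each at an adjusted p of 0.0129 by permutation. *RPL13* stayed called in every alternative, with an adjusted p of at most 0.0262. *TNRC18* and *EIF3G* lost the call with Pearson's r, at adjusted p values of 0.0642 and 0.055 by its t-test.

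**Figure D5:**
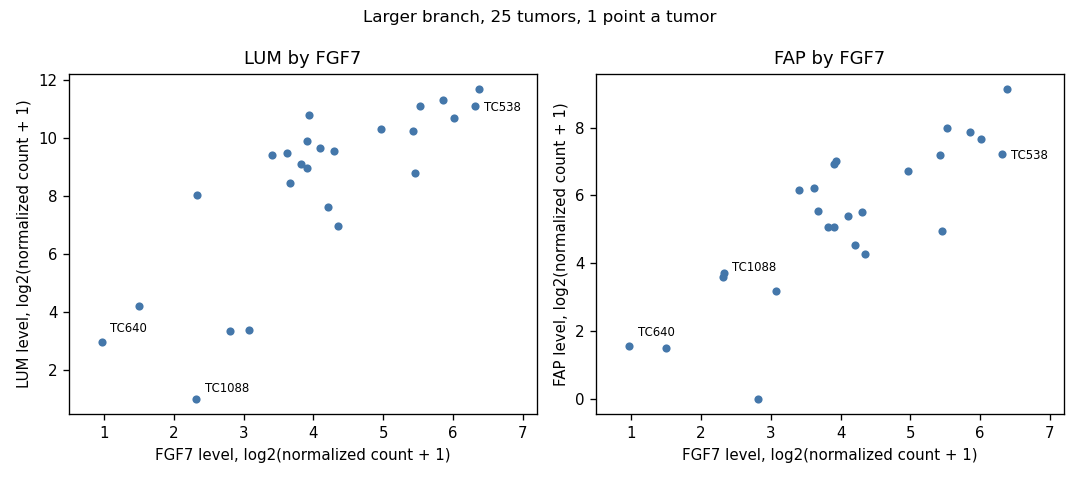
Level of *LUM* (left) and *FAP* (right) against the level of *FGF7*, all as log2(normalized count + 1), in the 25 tumors of the larger branch, with 1 point a tumor and TC538, TC640 and TC1088 named. Both genes rise with *FGF7* (rho 0.80 and 0.78), and TC640, with 1 count of *FGF7*, is among the lowest in both.

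*FGF9* had no called gene. *MATN2*, a matrix protein, was nearest (rho 0.77, adjusted p = 0.253 by permutation, r 0.69), followed by *CAPN5* and *OSMR*, the oncostatin M receptor (0.69). On the larger branch *FGF9* had a median of 5 counts and reached 10 counts in 8 of 25 tumors.

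Beyond the genes named above, no gene of the 6 pathway lists and 9 marker lists was called with any member. Median rho over the follicular markers lay between -0.23 with *FGFR2* and 0.18 with *FGFR3*, and over the C cell markers between -0.02 with *FGFR4* and 0.17 with *FGF7*. For leukocyte markers it lay between -0.16 with *FGFRL1* and 0.26 with *FGF1*. The heparan sulfate enzymes had medians between -0.23 with *KLB* and 0.25 with *FGFRL1*, and the co-receptors and binding proteins between -0.19 with *FGF1* and 0.32 with *FGFRL1*. Medians lay between -0.20 with *KLB* and 0.17 with *FGFR1* over the adaptors, between -0.19 with *FGF9* and 0.33 with *FGFR2* over the homologous factors, and between 0.00 with *FGFR2* and 0.22 with *FGF1* over the other secreted ligands. Over the pericyte and smooth muscle markers they lay between -0.01 with *FGFR4* and 0.36 with *FGFR1*, and over the 3 adipocyte markers tested between -0.03 with *FGF7* and 0.35 with *FGFR1*. Of the parathyroid markers, 1 could be tested, with a rho between -0.32 for *FGFR2* and 0.34 for *FGFR3*.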

How the data were processed

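RNA-seq of 30 thyroid tumors (1 group, per the labels) was used. The authors removed ribosomal RNA, mapped reads to CanFam3.1 and counted reads per gene with STAR, and deposited raw counts. The strand setting is not given in the sources used here, so reads of overlapping genes may be shared. Columns of no sample numbered 0, and 0 pairs of tumors had identical counts.

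The members and lists were chosen with earlier results of these data known. Counts were divided by median-of-ratios size factors (15611 genes with a count in every tumor) and taken as log2(value + 1). Tumors were clustered (Ward) on 760 genes whose mean exceeded 2 and whose variance exceeded 6, leaving out members and pathway genes. Spearman's rho was tested on the larger branch against 1e+06 permutations, and single pairs against 100000, where the smallest p is 1e-05. Named genes were the lists and, for each member, the 5 highest and 3 lowest rho among genes with a symbol. Each tumor is 1 library, so p-values measure the spread between tumors. On simulated data for *FGFR1*, 198 of 200 changed genes of 18105 were recovered, with 12 false calls. The simulated trends were strong against the noise and the genes were drawn independently, so this recovery does not hold for weaker correlations. Intervals (95%) and the floor of 3 counts cover counting error only, since reads were not counted by molecular identifiers. Alternatives were TMM scaling (edgeR 4.0.16, R 4.3.3), a pseudocount of 8, no count filter, Pearson's r, ranks adjusted for the size factor, another clustering, and leaving out TC1088 or TC538. Python 3.11.15, numpy 2.4.6, scipy 1.17.1, pandas 2.3.3 and matplotlib 3.10.9 were used. No sequences are printed and no coordinates are given, since the reference table is of another assembly.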

Additional observations from a re-analysis of the deposited data

How the results depend on the processing

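Median levels of the 9 members and median receptor shares moved by less than their spread over tumors under each alternative run for them. This is a weak check, since shares come from raw counts within a tumor and scaling cannot move them. The count of genes called with *FGFR1*, 785, became 190 without TC538, 403 without the count filter, 2756 with Pearson's r and 89 with ranks adjusted for the size factor. That of *FGFR2*, 0, became 7 without TC1088, 1 with Pearson's r and 3 with adjusted ranks. *FGFR3* and *FGFR4* stayed at 0, and so did the called member pairs, in all alternatives run. Outside the 4 receptors, the count of *FGFRL1*, 1609, ranged from 7 without TC538 to 5946 with Pearson's r, and was 2847 under TMM scaling, 597 without TC1088, 521 without the count filter and 120 with adjusted ranks. *KLB*, 0, became 36 without TC1088 and 20 with adjusted ranks. *FGF1*, 7, became 0 under TMM scaling and without the filter, and 2 with Pearson's r. *FGF7*, 64, became 11 under TMM scaling, 42 without the filter and 29 with Pearson's r. TMM scaling moved the positive share of the *FGFR1* calls from 365 of 785 to 503 of 821. The cause of these moves was not tested, apart from the larger number of genes tested without the filter, 28630. A pseudocount of 8 cannot change ranks, so it is no check of rho, and the second clustering gave the same branches. Of the correlations named, 0 changed direction. Shares per kilobase were not run, since no coding lengths were at hand. No paired analysis was possible because all tumors form 1 group. What the depth limits was not tested.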

Other observations

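The genes next to each member along the chromosome were examined after the values had been seen. Up to 3 protein-coding genes on each side of the 9 members were taken in the order of the UU_Cfam_GSD_1.0 assembly, and 43 of them could be tested on the larger branch. Of these, 2 were called and both were immediate neighbours: *LETM2* next to *FGFR1* (rho 0.86, adjusted p = 0.00226 by the permutation test) and *IDUA* next to *FGFRL1* (rho 0.80, adjusted p = 0.0145 by permutation). Over all genes tested, 4.34% were called with *FGFR1*, 8.89% with *FGFRL1* and at most 0.353% with any other member. The 2 of 43 are therefore not read as a result about neighbours. Without TC538 and TC1088 the r of *LETM2* was 0.97, against 0.83 with them. On the other side of *FGFR1*, *TACC1* had a rho of 0.38 (adjusted p = 0.216 by permutation), and *NSD3*, just beyond *LETM2*, had 0.06 (adjusted p = 0.877). Next to *IDUA*, *SLC26A1* had a rho of 0.47 with *FGFRL1* (adjusted p = 0.0909 by permutation) and *DGKQ* 0.46 (adjusted p = 0.0953). The median rho over the 43 neighbours was 0.11. All 6 neighbours of *KLB* had a rho above 0, from 0.25 to 0.52, with adjusted p values of 0.194 to 0.58 in the permutation test. On either side of *FGF7*, *FAM227B* had a rho of 0.07 and *DTWD1* 0.32, and *WDR11* and *ATE1*, on either side of *FGFR2*, were at -0.21 each.

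Of the parathyroid markers, *CASR*, the calcium-sensing receptor, which C cells also express, had normalized counts from 10600 in TC1601 to 45700 in TC1020 in the 5 tumors of the smaller branch, and at most 665 in the other 25. *PTH*, parathyroid hormone, was highest in TC2288 at a level of 14.80, and was at 3.28 in TC1020. *GCM2*, another of these markers, did not pass the count limit. Its level was also highest in TC2288, at 7.65 with 178 counts, and the second highest was 2.88. TC2288 had the lowest *KLB* level of the 30 as well, 2.13, which rests on 3 counts, and a link to these markers was not tested.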
